A study of Mus musculus with 4 samples.

Results

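The milk protein genes are those whose products make up the caseins, the whey proteins and the coat of the milk fat globule. A list of 10 was followed here: the caseins Csn1s1, Csn2, Csn1s2a, Csn1s2b and Csn3, the whey protein genes Wap and Lalba, and the globule coat genes Mfge8, Xdh and Muc15. Members were taken by name, from probe sets that the platform annotation assigns to a single gene symbol, and dim genes were kept. All 10 were found among the 22180 genes measured in this way, each through 1 probe set. The dim limit was 2.84, the median of all probe sets and arrays. By their mean over the 4 arrays, 8 of the 10 lay at or above it and 2 (Wap and Csn1s2b) below it. The limit does not mark detection, and Csn2 and Csn1s2a fell below it on some arrays.

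The cells were mammary epithelial aggregates freed from inguinal glands of 4 week-old mice by collagenase and centrifugation. All mice were congenic FVB/NJ. In the MMTV-Cre group (n = 2 samples) they carried Cre recombinase under the promoter of mouse mammary tumour virus, which responds to steroid hormones and is active in mammary epithelium among other tissues, and in the other group (n = 2 samples) they were wild-type littermates. No floxed target allele is named in the labels, and the sex of the mice and their number per sample are not given there either. Each sample was read on 1 array. Values are log2 expression, so a difference of 1 is a doubling, and each pair of values is given with replicate 1 first.

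Milk is made by alveolar cells that form in pregnancy, when prolactin acts through STAT5, with glucocorticoid, on the casein and whey genes. The calcium-binding caseins aggregate into micelles, kappa-casein (Csn3) coats and stabilises them, and alpha-lactalbumin (Lalba) is the subunit that turns a galactosyltransferase into lactose synthase. Fat leaves the cell wrapped in membrane that carries lactadherin (Mfge8), xanthine oxidoreductase (Xdh) and mucins. At 4 weeks the gland is a growing ductal tree with few alveoli, so these arrays show the genes before their main period of use. Transcripts of Csn3 are known from luminal progenitor cells of glands that have never been pregnant.

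STAT5 proteins bind palindromes of the form TTCNNNGAA, and the windows before the start sites of the neighbouring genes Csn1s1 and Csn2 are shown because both hold one while their probe sets followed different courses over the 4 arrays. The sequences are RefSeq's for GRCm38.p6, 250 bases ending just before the annotated start, read 5′ to 3′ on the gene's strand, with the match in capitals. The Csn1s1 window is chr5:87665958-87666207 on the plus strand and the Csn2 window is chr5:87699426-87699675 on the minus strand.
Csn1s1: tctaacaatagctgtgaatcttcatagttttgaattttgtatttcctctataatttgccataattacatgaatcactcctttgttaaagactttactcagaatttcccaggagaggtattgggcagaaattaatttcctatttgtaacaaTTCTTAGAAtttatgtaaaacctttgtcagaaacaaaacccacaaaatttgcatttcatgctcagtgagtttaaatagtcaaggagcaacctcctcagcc
Csn2: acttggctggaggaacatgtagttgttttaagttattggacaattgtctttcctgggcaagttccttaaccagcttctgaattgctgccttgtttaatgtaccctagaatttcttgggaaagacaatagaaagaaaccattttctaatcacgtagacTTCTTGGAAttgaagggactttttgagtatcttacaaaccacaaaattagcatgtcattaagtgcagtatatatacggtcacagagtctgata

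The match in Csn1s1 spans positions −100 to −92 and the match in Csn2 positions −93 to −85, counted from the start site. Of the 10 genes, 6 had an entry in the promoter table. With the first 50 transcribed bases added, 3 of these 6 held the motif, the third being Csn1s2a with a match at positions 21 to 29 after its start. Wap, Lalba and Mfge8 had no match in their windows. Over all 32851 promoter windows of the same 300 bases, 8.30% held TTCNNNGAA, which reads the same on both strands. The letters TATAAA were in none of the 6 windows on either strand and in 13.6% of all windows. A match describes letters only and does not show binding in these cells.

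Before the members are compared, 3 facts about the arrays bear on them. The luminal genes Krt8 (10.30 to 10.40), Krt18 (9.99 to 10.18) and Epcam (8.52 to 8.67) and the basal gene Krt14 (7.27 to 8.07) were bright on all 4 arrays, as the labelled cell type would require. Among genes at or above the dim limit, 63 were higher in wild-type replicate 1 than on each other array by 1 log2 unit or more. On those arrays 1, 2 and 1 genes stood out in this way. The summed level of 12 measured lymphocyte genes was 9.26 in wild-type replicate 1 and 6.60 to 6.72 elsewhere (log2 of the summed linear values). In bulk RNA such as this, fewer cells of a type and less RNA per cell cannot be told apart. As a yardstick for a silent gene, 1088 olfactory receptor genes, chosen after values had been seen, had a median of 1.53, a 5th percentile of 0.995 and a 95th percentile of 3.02 over all arrays; the span between these percentiles is called the olfactory receptor range. Probe sets differ in how brightly they report a given amount of RNA, so the members' levels are set against this yardstick and not against each other.

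The casein probe sets read from inside the olfactory receptor range to the bright end of the arrays. Csn3 was bright and steady, and Csn1s1 lay well above the olfactory receptor range. Csn2 exceeded the upper edge of that range on 2 arrays and Csn1s2a on 1, and Csn1s2b stayed inside it. None of the 5 passed the limma test between genotypes, and the share called over all 22180 genes was 0% (smallest adjusted p = 0.963).

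Csn3 encodes kappa-casein, the micelle's outer layer. Csn3 read 8.61 and 8.57 on the MMTV-Cre arrays, against 8.59 and 8.55 on the wild-type arrays. The 4 values span 0.05 log2 units and the groups interleave. Its probe set ranked above at least 98.5% of all probe sets on every array. Differences are MMTV-Cre minus wild-type throughout. That of Csn3 was 0.02 on the log2 scale (95% interval −0.27 to 0.30, or 0.828-fold to 1.23-fold). Its spread within groups (SD 0.03) was at percentile 3.68 of all genes and at percentile 13.5 of the 1000 genes nearest in mean level.

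Csn1s1 encodes alpha-S1-casein, one of the calcium-sensitive caseins. Csn1s1 read 6.04 and 6.57 on the MMTV-Cre arrays, against 6.39 and 6.37 on the wild-type arrays. Both extremes were MMTV-Cre arrays, with the wild-type pair between them. The log2 difference was −0.08 (−0.56 to 0.41). On every array it ranked above at least 88.8% of probe sets.

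Csn2 encodes beta-casein, a widely used marker of milk secretion. Csn2 read 2.65 and 3.66 on the MMTV-Cre arrays, against 2.56 and 3.70 on the wild-type arrays. Each genotype held 1 low and 1 high array about 1 log2 unit apart (1.01 in MMTV-Cre and 1.14 in wild-type), the low values lay inside the olfactory receptor range, and the high ones above its 95th percentile. The group means, 3.15 and 3.13, were therefore nearly equal, and the log2 difference of 0.02 had an interval of −1.13 to 1.18, or 0.456-fold to 2.26-fold. Both low arrays are numbered replicate 1 and both high arrays replicate 2, but the labels do not say that a number marks anything shared.

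Csn1s2a, which encodes another calcium-sensitive casein, read 2.47 and 3.40 on the MMTV-Cre arrays, against 2.98 and 2.80 on the wild-type arrays. Only MMTV-Cre replicate 2 lay above the 95th percentile of olfactory receptor genes on the same array. The log2 difference was 0.04 (−0.71 to 0.80), and the order of its arrays was not that of Csn2. Csn1s2b, its close relative, read 1.89 and 1.63 on the MMTV-Cre arrays, against 1.63 and 1.65 on the wild-type arrays. It was above the 95th percentile of olfactory receptor genes on 0 of 4 arrays, and 62.8% of those genes had a lower mean. A level above silence was not detectable for Csn1s2b with this probe set.

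**Figure D1:**
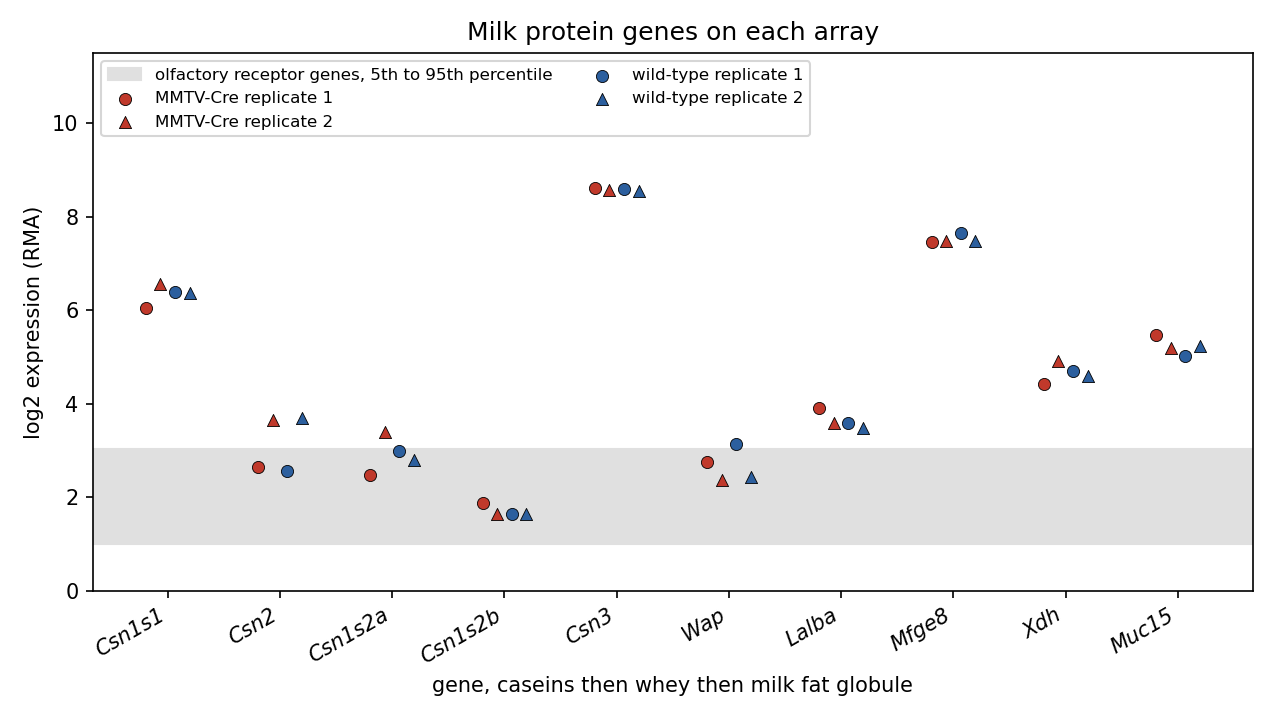
Log2 expression of the 10 milk protein genes on each of the 4 arrays (circles replicate 1, triangles replicate 2, red MMTV-Cre, blue wild-type), with the 5th to 95th percentile of 1088 olfactory receptor genes in grey. Csn3 and Mfge8 stand far above the grey band with points close together, Csn2 splits into a pair near 2.6 and a pair near 3.7 with 1 array of each genotype in each, and Csn1s2b lies inside the band.

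The 5 casein genes lie in 1 cluster on chromosome 5, in the order Csn1s1, Csn2, Csn1s2a, Csn1s2b and Csn3, with other genes between the last 2. Of the 5 protein-coding genes next to or between the caseins, 4 were measured. Sult1e1, an oestrogen sulphotransferase gene before Csn1s1, stood at 2.00 to 2.03. Prr27 stood at 2.67 to 2.85, Odam, which encodes a protein of maturing tooth enamel, at 1.53 to 1.64, and Cabs1, which follows Csn3, at 1.36 to 1.75. All 4 neighbours stayed below 3.02 on all arrays, whereas Csn1s1 and Csn3 stood above it on all arrays. None of these neighbours had an unadjusted p under 0.05 by limma (smallest 0.230, for Prr27).

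**Figure D2:**
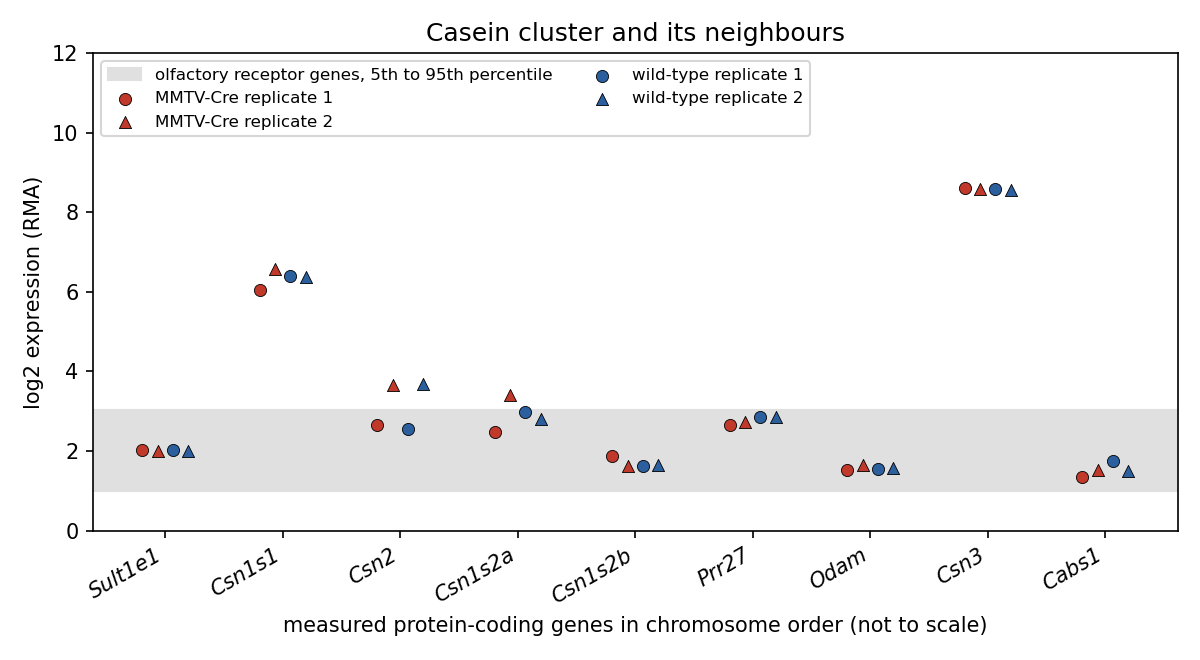
Log2 expression on the 4 arrays of the measured protein-coding genes of the casein cluster, placed in chromosome order and not to scale, with the olfactory receptor range in grey. Csn1s1 and Csn3 rise out of the band while Sult1e1, Csn1s2b, Prr27, Odam and Cabs1 lie within it.

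Of the whey protein genes, Wap was dim, Lalba lay above the olfactory receptor range on all 4 arrays, and neither passed the test. Wap, whose product is the whey acidic protein of rodent milk, read 2.75 and 2.38 on the MMTV-Cre arrays, against 3.14 and 2.43 on the wild-type arrays. Its highest value was in wild-type replicate 1, the only array where it exceeded the 95th percentile of olfactory receptor genes. That array also held the lymphocyte transcripts, whose part in this value was not tested. In both genotypes replicate 1 read higher than replicate 2, and both replicate 1 arrays were above both replicate 2 arrays, the reverse of Csn2. The log2 difference was −0.23 (−0.88 to 0.43), the largest below 0 among the members, and it was 0.13 (−0.43 to 0.68) without wild-type replicate 1, −0.58 without wild-type replicate 2, −0.04 without MMTV-Cre replicate 2 and −0.41 without MMTV-Cre replicate 1.

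Lalba, the alpha-lactalbumin gene, read 3.90 and 3.59 on the MMTV-Cre arrays, against 3.59 and 3.48 on the wild-type arrays. All 4 values lay above the 95th percentile of olfactory receptor genes, with 97.4% of those genes lower on average. The MMTV-Cre arrays were both above the wild-type arrays, though MMTV-Cre replicate 2 (3.5933) and wild-type replicate 1 (3.5865) were almost level. The log2 difference of 0.21 (−0.16 to 0.59, limma adjusted p = 0.963) was the largest above 0 among the 10 and did not pass. It was 0.06 (−0.35 to 0.47) without MMTV-Cre replicate 1 and 0.37 without MMTV-Cre replicate 2.

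The genes of the milk fat globule coat were all above the olfactory receptor range. Their products also serve cells that make no milk: lactadherin bridges dying cells to phagocytes, and xanthine oxidoreductase degrades purines in many tissues. Mfge8 read 7.46 and 7.47 on the MMTV-Cre arrays, against 7.66 and 7.48 on the wild-type arrays. Both MMTV-Cre values were lower, but by only 0.01 against wild-type replicate 2. The log2 difference was −0.10 (−0.42 to 0.21), −0.01 without wild-type replicate 1 and −0.19 without wild-type replicate 2. Its 95% interval with all 4 arrays spans 0.749-fold to 1.16-fold.

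Xdh read 4.42 and 4.91 on the MMTV-Cre arrays, against 4.69 and 4.59 on the wild-type arrays. As with Csn1s1, the wild-type pair fell between both MMTV-Cre arrays. The log2 difference was 0.02 (−0.44 to 0.49). Muc15, a mucin gene of the globule membrane, read 5.47 and 5.18 on the MMTV-Cre arrays, against 5.02 and 5.23 on the wild-type arrays. MMTV-Cre replicate 1 was highest, and MMTV-Cre replicate 2 fell between both wild-type arrays. The log2 difference was 0.20 (−0.18 to 0.59). It was 0.06 without MMTV-Cre replicate 1, 0.10 without wild-type replicate 1, 0.35 without MMTV-Cre replicate 2 and 0.31 without wild-type replicate 2.

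The comparison of genotypes asks whether glands that carry the Cre transgene differ in these genes from glands without it. By limma 0 of the 10 passed an adjusted p of 0.05, and 0 had an unadjusted p under 0.05, against 4.56% of all genes. All 10 intervals included 0. Differences were above 0 in 7 and below 0 in 3, where 50.4% of all genes were below 0. The median was 0.02, against −0.00 over all genes. The median size of a difference was 0.09 for the members and 0.11 for all genes. The groups did not overlap in 2 of the 10, Lalba higher and Mfge8 lower, while 33.0% of all genes had groups that did not overlap (16.6% higher and 16.3% lower). The members are not above that background. Without MMTV-Cre replicate 2 or without wild-type replicate 2, 6 members in place of 3 were below 0.

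**Figure D3:**
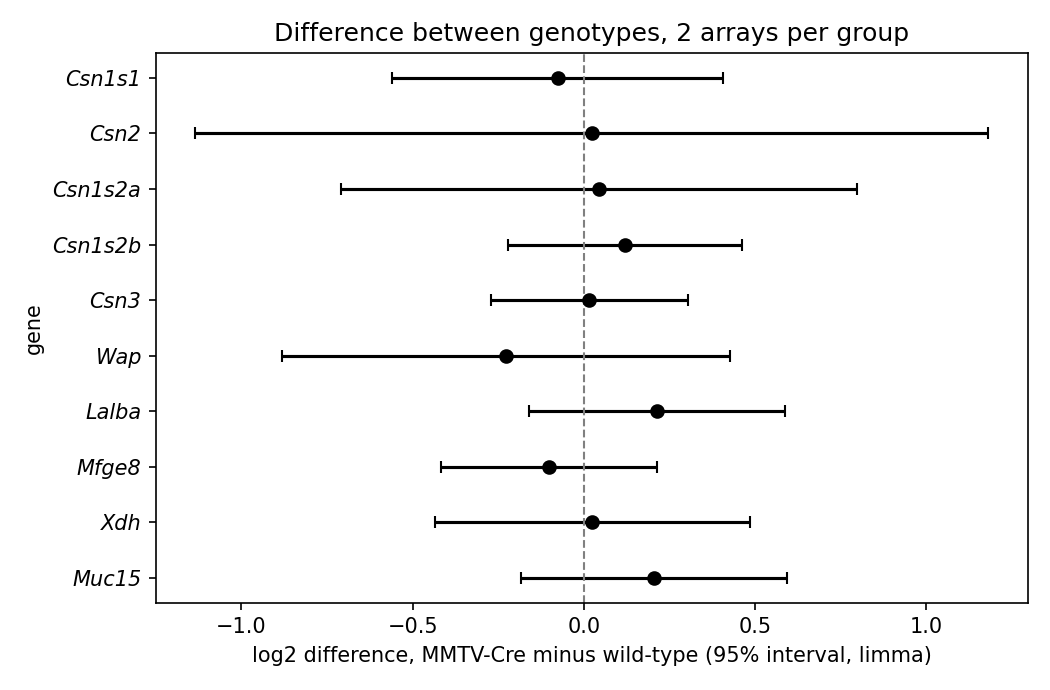
Log2 difference between MMTV-Cre and wild-type for each member (points) with its 95% interval from limma (bars), 2 arrays per group. Every interval crosses 0, narrowest for Csn3 (−0.27 to 0.30) and widest for Csn2 (−1.13 to 1.18).

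How firmly a change can be bounded differed between members. The half-width of the interval was 0.29 log2 units for Csn3, 0.32 for Mfge8 and 0.34 for Csn1s2b, near or below the median of 0.35 over all genes. It was 0.37 for Lalba, 0.39 for Muc15, 0.46 for Xdh and 0.48 for Csn1s1. For Wap, Csn1s2a and Csn2 it was 0.65, 0.75 and 1.16. Csn1s2b was not told from silence on any array, so its interval does not bound a change in its expression. Wap and Csn1s2a exceeded the 95th percentile of olfactory receptor genes on only 1 array each, and Csn2 on 2. The same limit holds in part for their intervals. Spread within groups was 0.76 for Csn2 (SD), at percentile 99.7 of all genes. Csn1s2a (SD 0.47) was at percentile 98.1 and Wap (SD 0.40) at 96.4. Set only against the 1000 genes nearest in mean level, Csn2 was at percentile 99.3, Csn1s2a at 96.3, Csn1s1 at 95.5 and Wap at 93.7. These ranks are descriptions from 4 arrays.

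**Figure D4:**
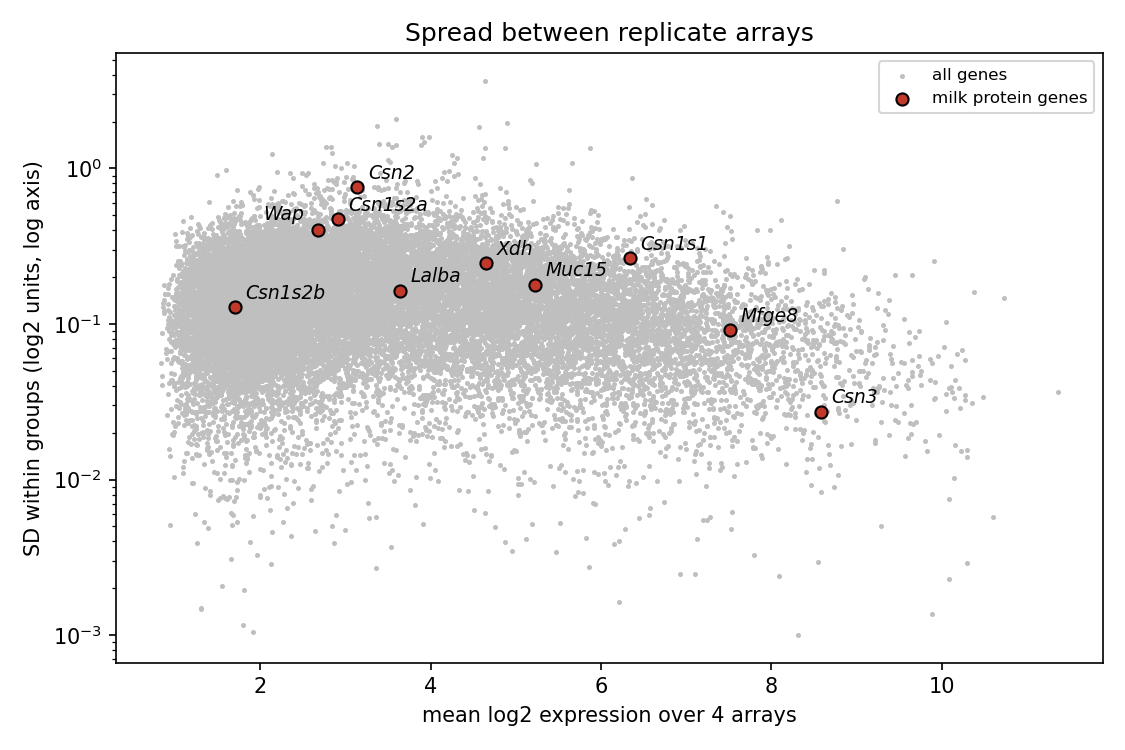
Spread within groups (SD over both groups, log2 units, log axis) against mean log2 expression for all 22180 genes in grey and the 10 members in red. Csn2 lies at the upper edge with an SD of 0.76 and Csn3 near the lower edge of the bright genes with 0.03.

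The genes whose course over the 4 arrays was most like that of Csn2 were sought among 256 genes outside the list that were not dim and spanned at least 1 log2 unit. Likeness was the root mean square difference of the arrays' deviations from the gene's mean. The closest was the RNA gene AF357425 (0.11 log2 units), followed by the endothelin receptor gene Ednrb (0.19), the fatty acid transporter gene Cd36 (0.20), Crispld1 and Adam1a (both 0.22). Cd36 read 6.97 and 7.93 on the MMTV-Cre arrays, against 6.92 and 7.56 on the wild-type arrays. Ednrb read 5.32 and 6.22 on the MMTV-Cre arrays, against 5.09 and 5.86 on the wild-type arrays. These genes were picked for this course, so their likeness is a description. By the same measure the other caseins differed from Csn2 by 0.44 (Csn1s1), 0.47 (Csn1s2a), 0.56 (Csn3) and 0.60 (Csn1s2b), but none of them spans 1 log2 unit, as the picked genes had to, so the values are not set against each other.

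Cd36 and Ednrb are also expressed by endothelial cells, and Cd36 is also among the genes fixed below as other milk and secretory genes. The other picked genes were not placed by cell type. The summed level of endothelial markers was higher where Csn2 was high. All 11 endothelial genes fixed as a list were measured, and 11 of 11 were above the dim limit. Their summed level was 9.41 in MMTV-Cre replicate 1 and 9.31 in wild-type replicate 1, where Csn2 was low. It was 9.80 in MMTV-Cre replicate 2 and 9.72 in wild-type replicate 2, where Csn2 was high. Singly, 8 of the 11 were higher in both replicate 2 arrays than in both replicate 1 arrays, an order that 18.2% of all genes had, and 3 (Eng, Tek and Tie1) were not. The defining markers Pecam1 (6.77 to 7.23) and Cdh5 (7.72 to 8.14) were present on all 4 arrays. The summed level of 10 adipocyte genes was also lower in the replicate 1 arrays of MMTV-Cre and wild-type (9.68 and 9.71) than in the replicate 2 arrays (10.02 and 9.93), but only 3 of those genes had this order singly, among them Fabp4, the brightest. The summed level of 10 luminal genes lay between 12.09 and 12.14 on all 4 arrays, and 0 of the 10 had that order. Other lists did not split by replicate number as Csn2 did. The summed level of 10 fibroblast genes was 10.95 and 11.22 on the MMTV-Cre arrays, against 10.87 and 10.92 on the wild-type arrays. That of 10 macrophage and dendritic cell genes was 7.68 and 8.25, against 8.27 and 8.03. The part of these cell types in the Csn2 values was not tested.

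**Figure D5:**
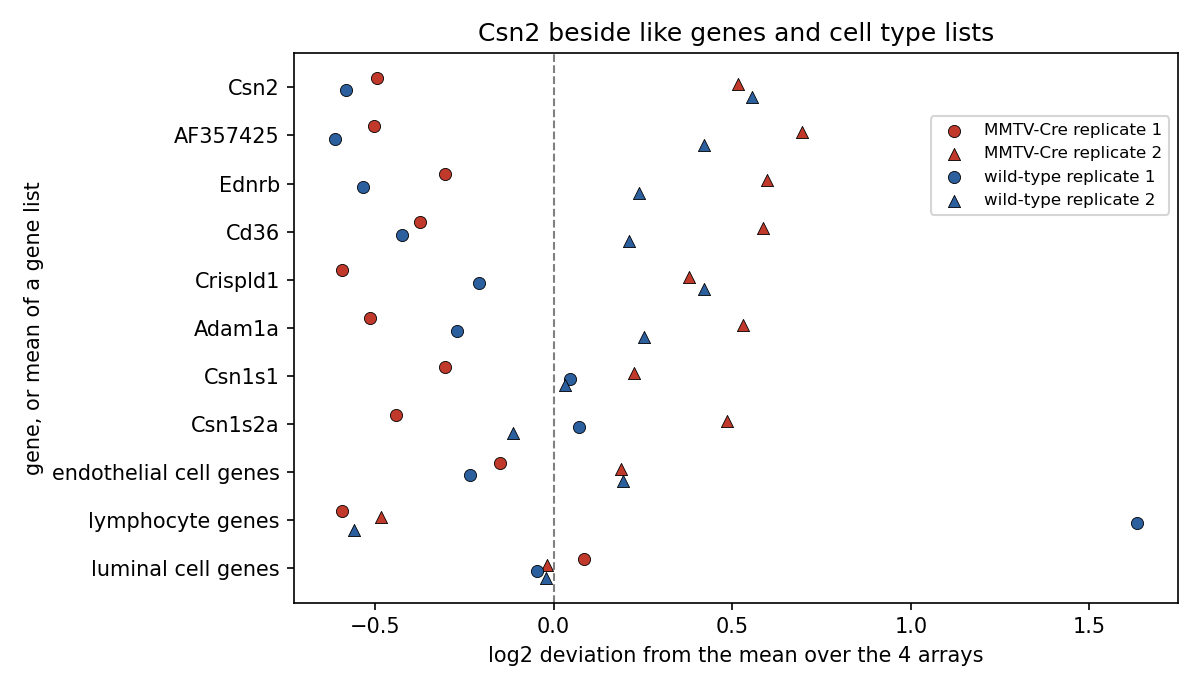
Deviation from the mean over the 4 arrays (log2 units) for Csn2, the 5 genes most like it, Csn1s1, Csn1s2a and the mean of 3 cell type lists, with symbols as for the members. Csn2 and the mean of the endothelial list split with the circles below 0 and the triangles above, the lymphocyte list stands out in wild-type replicate 1 alone, and the luminal list stays close to 0.

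Other genes of milk secretion gave no call. Of 25 genes fixed as other milk and secretory genes, 23 were measured, 0 passed in either direction (0% over all genes) and 0 had an unadjusted p under 0.05 (4.56% over all genes). Differences were above 0 in 10 and below 0 in 13, with a median of −0.03. Slc34a2, a phosphate transporter gene, had a log2 difference of −0.34 (−0.76 to 0.07). It was above the olfactory receptor range only in wild-type replicate 1 (3.165). Folr1, which encodes a folate receptor, differed by 0.39 (−0.08 to 0.86) and the mucin gene Muc4 by −0.22 (−0.50 to 0.07). Glycam1, a mucin-like gene of milk and of lymph node vessels, reached 10.19 on the wild-type replicate 1 array, where the rest gave 2.72 to 2.87. This array also held the high lymphocyte level, and no member of the milk protein list showed a rise of that size there.

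Most regulators that act above the milk genes lay above the dim limit, and none was called. Of 20 genes fixed as prolactin signalling and alveolar regulators, 20 were measured, 18 were above the dim limit, 0 passed (0% over all genes), and 1 had an unadjusted p under 0.05 (4.56% over all genes). That gene was Igf2, with a log2 difference of 0.31 (0.00 to 0.61, limma adjusted p = 0.963). Igf2 read 3.22 and 3.35 on the MMTV-Cre arrays, against 3.01 and 2.95 on the wild-type arrays. Both wild-type values lay inside the olfactory receptor range, though near its upper edge. In wild-type replicate 1 the value was above the 95th percentile of that array alone (2.984). Irs2, an insulin receptor substrate gene, differed by 0.35 (−0.03 to 0.72), Cish, a feedback inhibitor induced by STAT5, by 0.24 (−0.07 to 0.55), and Akt1 by 0.18 (−0.11 to 0.48). For these 4 genes the groups did not overlap, with MMTV-Cre higher, among 5 such genes in the list and 1 with MMTV-Cre lower. Those 6 of 20 are near the 33.0% over all genes. Stat5a read 3.73 and 4.06 on the MMTV-Cre arrays, against 4.04 and 3.95 on the wild-type arrays, with a log2 difference of −0.10 (−0.48 to 0.28). Stat5b stood at 4.31 and 3.86 against 4.90 and 3.64. Both replicate 1 arrays were thus above both replicate 2 arrays, the reverse of the order of Csn2. A relation between Stat5b and Csn2 was not tested. Elf5, the transcription factor gene needed for alveolar development, stood at 3.97 and 4.06 against 3.85 and 3.97, with a log2 difference of 0.11 (−0.20 to 0.41).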

How the data were processed

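Transcripts of 4 mammary epithelial samples were measured on arrays, from 50 ng of RNA each. What the authors deposited is a log2 level for each probe set, from oligo and RMA per the submitters' processing notes. No version is given there, and the log2 scale was read from the values. RMA equalises array distributions, so a shift shared by most genes cannot be seen.

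Of 41345 probe sets, 23521 had 1 gene symbol, 1814 several and 16010 none. Each gene was represented by its brightest 1-symbol probe set, without a filter on dim genes. The genotypes were compared by limma 3.58.1 under R 4.3.3 (lmFit, eBayes, two-sided, Benjamini-Hochberg over 22180 genes at 0.05) and 95% intervals. The procedure was also run on simulated data with independent noise and no array that stands apart as wild-type replicate 1 does. That run therefore does not cover such an array, and no result above rests on it. Symbols came from the platform annotation. Gene order came from the RefSeq table of GRCm38.p6, which matched all 10 members by Entrez identifier. The array's own build is not given in the sources used here. Coordinates are printed for the 2 promoter windows alone, as RefSeq's on GRCm38.p6, and no probe set was placed on them.

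The members and the lists were chosen with earlier results of these data known. Named genes were the members, up to 4 per list by smallest p, a few lineage and STAT5 genes, the 5 most like Csn2 and the casein neighbours. Pecam1, Cdh5, Tek, Fabp4 and the tally of replicate 2 above replicate 1 arrays were added after their values were seen. The labels call the samples biological replicates without saying what was separate. The p-values set a difference against the spread between these samples, which limma draws towards that of all genes. The number of samples limits the precision: 2 against 2 cannot give an exact two-sided permutation p under 0.333. Alternatives were a filter on dim genes, probe set means, other normalizations and variance models, the replicate number as a block, and each array left out.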

Additional observations from a re-analysis of the deposited data

How the results depend on the processing

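With all 4 arrays, the filter on dim genes, probe set means, quantile normalization, median centring, variance trend, robust variance and replicate block each left 0 genes and 0 members past the limma threshold (504 to 1043 genes at an unadjusted p under 0.05, 0 members), and all members tested kept their direction. The filter on dim genes removed Wap and Csn1s2b. Without 1 array each, genes past the threshold ran from 0 to 7, the 7 without wild-type replicate 2, and members past it stayed at 0. The members below 0 ran from 3 to 6, with 6 without MMTV-Cre replicate 2 and 6 without wild-type replicate 2. In these fits a group with 1 array is assumed to vary like the other.

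Differences that turned sign had these ranges over the fits without 1 array: Csn1s1 −0.34 to 0.19, Csn1s2a −0.42 to 0.51, Csn1s2b −0.0084 to 0.25, Csn2 −0.55 to 0.59, Csn3 −0.0042 to 0.036, Wap −0.58 to 0.13 and Xdh −0.22 to 0.27. Csn1s2a without MMTV-Cre replicate 1 (limma adjusted p = 0.944) and Wap without wild-type replicate 2 (limma adjusted p = 0.932) were the only members under an unadjusted 0.05, and neither passed.

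The replicate numbers are not stated to pair the samples, and deviations of same-numbered arrays correlated at −0.02 across genes. With the replicate block the Csn2 difference stayed at 0.02 and its interval was −0.32 to 0.37 in place of −1.13 to 1.18. The interval of Wap was −0.62 to 0.16 in place of −0.88 to 0.43. No call changed.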
